A study of Mus musculus with 28 samples.

Results

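The window on mouse chromosome 10 from 119700001 to 120200000 in the mm9 build, 500 kb that hold the Hmga2 gene and its upstream flank, was described in 28 lists of accessible regions from 14 groups of cells. Its members were the peaks of each list that overlapped it by at least 1 bp. They numbered 746 over all lists, between 5 and 56 in a list, and formed 87 of the 253225 regions obtained by merging overlapping peaks of all lists. The window was chosen because its block from 120000001 to 120100000 lost more regions between Day 0 fibroblasts and Dox+FRG day 8 cells not labelled GFP than any other 100 kb block, so the difference between those 2 groups is given as a description with no test. At the lower edge of the window, the first region inside (chr10:119709113-119710746) was called in 15 libraries and the last one outside (chr10:119694254-119694881) in 17. At the upper edge, the last region inside (chr10:120188349-120189428) was called in 27 libraries and the first one outside (chr10:120200811-120201748) in 10.

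Hmga2 encodes a small chromatin protein that binds AT-rich DNA through short AT-hook motifs. It is made by embryonic and mesenchymal cells, is low in most adult tissues and is held down by let-7 microRNAs. Mice that lack it are small, and in mouse muscle it is known for a role in proliferating myoblasts derived from satellite cells, the muscle stem cells.

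Accessible DNA was measured by ATAC-seq, in which a transposase cuts open chromatin, with 60000 cells in each reaction. The fibroblasts (MEF) came from E13.5 embryos, and the labels describe them as carrying Rosa-rtTA, a doxycycline-dependent activator driven from the Rosa locus, Col1a1-tetO-MyoD, a MyoD transgene that this activator turns on, and the reporter Pax7-nGFP. The groups named MEF14 were Dox+FRG on days 2, 4, 6 and 8, Dox+FRG with the label GFP on days 8 and 10, Dox+ (called Dox here) on days 4 and 8, FRG on day 8, and Day 0. The labels do not say how the GFP cells were obtained, and Dox+FRG without GFP stands below for the groups that lack this label. The conversion medium held forskolin at 5 µM, RepSox at 5 µM, the GSK3β inhibitor CHIR99021 at 3 µM, doxycycline at 2 µg/ml and basic FGF at 10 ng/ml, and the medium for myotubes held doxycycline and basic FGF without the small molecules. FRG is read here as the initials of the small molecules, and the doses of the FRG group are not stated separately. Day 6 cells named MEF10 came as MyoD+FRG and as MN+FRG, and neither MN nor the difference of MEF10 from MEF14 is defined. Activated and quiescent satellite cells (SCs) completed the series. The labels describe satellite cells from adult Pax7-nGFP mice of 10 to 12 weeks and a medium for their expansion, without saying how the activated and quiescent groups were prepared. The reporter Pax7-nGFP was shared by the fibroblasts and mice described, no strain is named, and no separate genotype is given for MEF10. Each group had 2 libraries. No label says that these came from separate embryos, mice or cultures, and the spread on which a p-value rests may thus be technical. The tests below join days or cell states, so their spread also holds differences between these. In lists of peaks, fewer cells with an open region and a weaker opening in every cell cannot be told apart. The labelled cell types were not checked against marker genes, since no mm9 annotation was used here.

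The upstream sequence of Hmga2 is shown because it is the starting point of the flank described here. It is credited to RefSeq (GRCm38.p6, chr10:120476470-120476719, minus strand), covers the 250 bases before the annotated start and was not placed on the mm9 lists. Capitals mark the GC box CCGCCC, a motif of Sp1-type factors.

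Hmga2 upstream: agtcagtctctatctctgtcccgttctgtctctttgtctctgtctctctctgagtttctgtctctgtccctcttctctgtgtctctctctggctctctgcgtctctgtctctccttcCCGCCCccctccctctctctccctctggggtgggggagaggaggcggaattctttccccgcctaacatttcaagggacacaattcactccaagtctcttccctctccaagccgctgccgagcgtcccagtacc

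The stretch was rich in pyrimidines. C or T made up 70.8% of it, against a median of 50.0% over 32851 RefSeq promoters of the same length, 99.6% of which had a lower share. Its GC box began at position -133 from the start, and 32.7% of all promoters held at least 1 match on either strand. The E-box CANNTG, the motif bound by MyoD, had 0 matches on either strand in these 250 bases, against at least 1 match in 66.2% of promoters. The AP-1 motif TGANTCA also had 0 matches, against 6.75% of promoters with at least 1. In the GRCm38.p6 annotation Hmga2 lies on the minus strand, so its upstream flank runs towards higher coordinates. The next protein-coding gene on that side is Msrb3, with 7 annotated genes of other kinds between, and the next one on the other side is Llph. Inside Hmga2 5 genes are annotated, among them the microRNA gene Mir763.

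The lists differed in length from 37301 to 134997 peaks, so peaks of the window are also given per 10000 peaks of the same list, called the window share. The lists hold no peak height or read number, and sequencing depth per library is therefore unknown. Dox and FRG lists were the longest MEF14 lists. Their peaks were also narrower, with a most common width of 61 and 63 bp in FRG lists and 78 to 88 bp in Dox lists. It was 123 and 111 bp in MEF10 MN+FRG lists and 153 to 205 bp in Day 0, Dox+FRG, GFP and SC lists. Comparisons between these groups thus set lists of unlike peak width side by side, and the part of width was not tested. MEF10 MyoD+FRG lists differed most within a group, with 37301 and 91401 peaks and a most common width of 155 bp and 500 bp.

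The window was peak-rich in Day 0 fibroblasts, and the Dox+FRG groups without GFP had lower shares at each later day. Day 0 libraries listed 39 and 35 peaks in the window. Dox+FRG libraries listed 27 and 18 on day 2 and 27 and 20 on day 4. They listed 22 and 23 peaks on day 6, and 21 and 15 on day 8. The mean window share was 5.35 ± 0.231 for Day 0 and 4.22 ± 0.431 for day 2 (SD, n = 2 each). Later it was 3.85 ± 0.0505 for day 4, 3.45 ± 0.0825 for day 6, and 3.05 ± 0.120 for day 8. Every library of a later day lay below every library of the day before, an order whose ends were fixed by the choice of the window. In Day 0 lists 98.5% and 97.8% of the 5089 genome tiles of 500 kb that held a region had fewer peaks than the window, and in Dox+FRG day 8 lists 74.7% and 72.1% did. The median tile held 13 and 12 peaks in Day 0 lists and 11 and 8 in Dox+FRG day 8 lists.

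FRG, Dox and GFP cells had shares between those ends. FRG day 8 lists held 53 and 56 window peaks, the most of any group, from lists of 134997 and 133267 peaks. Their window share was 4.06 ± 0.195 (SD, n = 2). Dox lists held 33 and 33 window peaks at day 4 and 35 and 44 at day 8, with shares of 3.52 ± 0.212 and 3.29 ± 0.0990. Dox+FRG GFP lists held 17 and 15 peaks at day 8 and 23 and 24 at day 10, with shares of 3.53 ± 0.117 and 3.72 ± 0.0283. Activated SC lists held 15 and 16 peaks and quiescent SC lists 22 and 10, with shares of 2.83 ± 0.319 and 3.22 ± 0.823. The library of quiescent SCs with 10 window peaks had a list of 37910 peaks, against 57859 in its replicate.

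Ordered by mean window share, the groups ran from Day 0 through Dox+FRG day 2, FRG day 8, Dox+FRG day 4, Dox+FRG day 10 GFP, MEF10 MN+FRG, Dox+FRG day 8 GFP, Dox day 4, Dox+FRG day 6, Dox day 8, quiescent SCs, Dox+FRG day 8 and activated SCs to MEF10 MyoD+FRG. Day 0 lay clear of its neighbour in this order, as did FRG day 8 of Dox+FRG day 4, Dox+FRG day 4 of day 10 GFP, and Dox+FRG day 6 of Dox day 8. All other neighbours overlapped in the range of their libraries.

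**Figure D1:**
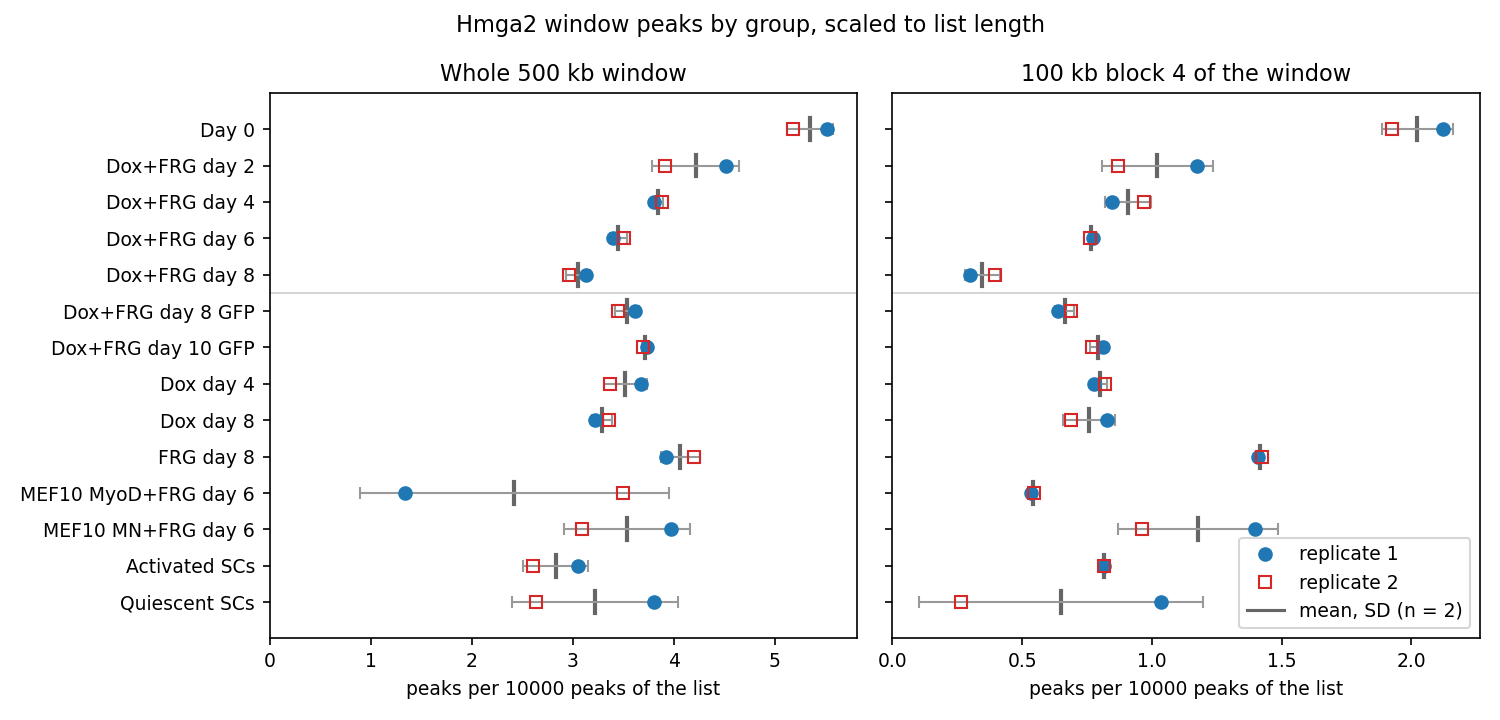
Peaks per 10000 peaks of the list (x axes) in the whole 500 kb window and in its 100 kb block 4, for each of the 14 groups (y axis). Circles and squares are replicates 1 and 2, and bars give the mean and SD (n = 2). Dox+FRG day 8 lists lie between 2.96 and 3.13 for the window, and Day 0 lists between 5.19 and 5.51.

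None of the 6 exact permutation tests on groups outside the contrast that chose the window passed after Benjamini-Hochberg adjustment over the 6. The smallest possible exact permutation p was 0.00952 with 210 splits and 0.0286 with 70. No single test could thus pass after adjustment on its own, and not passing does not show that groups were alike. Libraries of Dox+FRG days 2 to 6 had a window share of 3.84 ± 0.395 (SD, n = 6) and Dox libraries of days 4 and 8 had 3.41 ± 0.190 (SD, n = 4). The difference was 0.431 (two-sided exact permutation test with 210 possible splits, p = 0.0476 and adjusted p = 0.143), and 4 of 6 Dox+FRG libraries lay above every Dox library. Only day 4 is in both sets, so day and treatment are not separated in this difference. Over the genome, 12.6% of 500 kb tiles with at least 10 regions had a higher share in these Dox+FRG libraries at an unadjusted exact p up to 0.05. Without dividing by list length the direction turned, to means of 22.8 peaks in Dox+FRG and 36.3 in Dox lists (difference -13.4, exact permutation p = 0.00952, the smallest it can give, adjusted p = 0.0571).

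GFP cells of days 8 and 10 had a window share of 3.62 ± 0.126 (SD, n = 4), against 3.84 ± 0.395 in Dox+FRG cells of days 2 to 6 without GFP (n = 6), a difference of -0.213 (exact permutation p = 0.343, adjusted p = 0.411). No day is in both sets, so day and the GFP label are not separated in this difference. Without Dox+FRG day 2 replicate 1 the difference was -0.0767. Against satellite cells, at 3.03 ± 0.557 (SD, n = 4), the GFP share was higher by 0.599 (exact permutation test with 70 possible splits, p = 0.143 and adjusted p = 0.229). In the same 2 comparisons, 20.2% of tiles were lower in GFP than in Dox+FRG cells and 9.40% were higher in GFP than in satellite cells at an unadjusted exact p up to 0.05.

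The 100 kb blocks of the window differed in how far their counts varied. Blocks are numbered 1 to 5 from the lower end, and block 4, from 120000001 to 120100000, is the one that led to the choice of the window. Block 4 held 15 and 13 peaks in Day 0 lists. Dox+FRG lists held 7 and 4 there on day 2, 6 and 5 on day 4, 5 and 5 on day 6, and 2 and 2 on day 8. FRG day 8 lists held 19 and 19 there, the highest count of any list in any block, and Dox lists 7 and 8 at day 4 and 9 and 9 at day 8. GFP lists held 3 and 3 peaks at day 8 and 5 and 5 at day 10. Activated SC lists held 4 and 5, and quiescent SC lists 6 and 1. Block 4 took 9.52% and 13.3% of the window's peaks in Dox+FRG day 8 lists, 35.8% and 33.9% in FRG day 8 lists, and 38.5% and 37.1% in Day 0 lists. The median 100 kb block of the genome held 2 and 1 peaks in Dox+FRG day 8 lists, 5 and 5 in FRG day 8 lists and 2 and 2 in Day 0 lists.

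Per 10000 peaks, the Dox+FRG day 8, FRG day 8 and Day 0 lists lay closer together outside block 4. Block 4 was chosen on the Dox+FRG day 8 and Day 0 lists, so for these 2 groups this follows from the choice. The other 4 blocks held 19 and 13 peaks in Dox+FRG day 8 lists and 24 and 22 in Day 0 lists, which is 2.83 and 2.57 per 10000 peaks at day 8 and 3.39 and 3.26 at Day 0. FRG day 8 lists held 34 and 37 peaks there, more than both Day 0 lists. Per 10000 peaks they had 2.52 and 2.78, below both Day 0 lists. Block 5, the outermost upstream block, held 7 and 4 peaks in Dox+FRG day 8 lists, 9 and 10 in Dox day 8 lists, 10 and 12 in FRG day 8 lists and 10 and 11 in Day 0 lists.

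**Figure D2:**
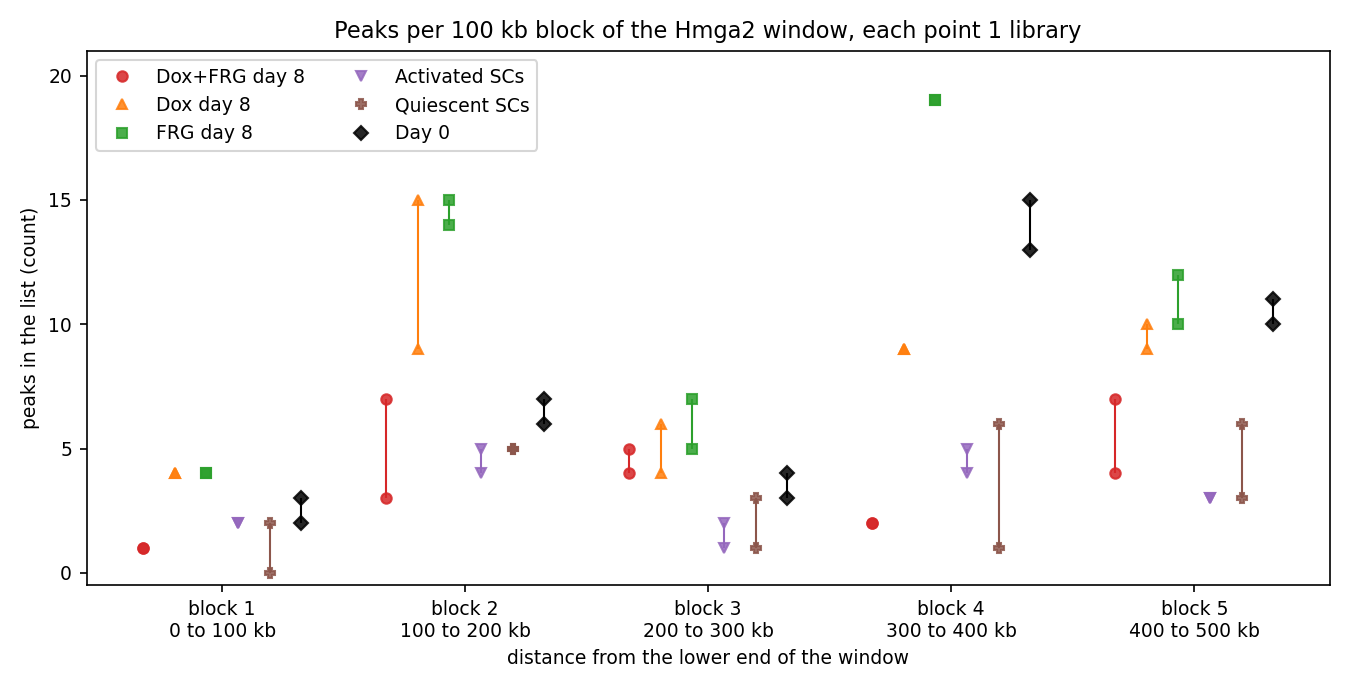
Number of peaks (y axis) in each 100 kb block of the window (x axis, distance from its lower end) in 6 groups, each point 1 library and each line the range of the 2 libraries. In block 4 the Dox+FRG day 8 lists stand at 2, the FRG day 8 lists at 19 and the Day 0 lists at 15 and 13.

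The share of block 4 did not pass a test either. It was 0.899 ± 0.154 per 10000 peaks in Dox+FRG libraries of days 2 to 6 (SD, n = 6) and 0.778 ± 0.0640 in Dox libraries (n = 4), a difference of 0.121 (exact permutation p = 0.152, adjusted p = 0.229). Without Dox+FRG day 2 replicate 1 the difference was 0.0661. GFP cells had 0.728 ± 0.0781 (SD, n = 4), lower by 0.171 than Dox+FRG cells of days 2 to 6 (exact permutation p = 0.0476, adjusted p = 0.143), with 2 of 4 GFP libraries below each of the 6 Dox+FRG libraries. Day and the GFP label are again not separated, since these sets share no day. The share of 100 kb blocks of the genome with at least 10 regions that were lower in GFP at an unadjusted exact p up to 0.05 was 15.0%. Satellite cells had 0.733 ± 0.330 (n = 4), from which GFP cells differed by -0.0050 (exact permutation p = 0.943, adjusted p = 0.943), and leaving out 1 library at a time gave differences from -0.161 to 0.0965. The value was 0.0248 and 0.00749 without day 8 GFP replicate 1 or 2, 0.0225 and 0.0223 without activated SC replicate 1 or 2, and 0.0965 and -0.161 without quiescent SC replicate 1 or 2.

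Of the 87 regions, 32 were called in both Day 0 libraries (22.5% of all regions in the genome were), 9 in 1 of them and 46 in neither. In the genome 176545 of 253225 regions were called in neither. Both libraries called 14 of the 87 in Dox+FRG day 8 cells, beside 18% of all regions, 14 in day 8 GFP cells, beside 15.1%, and 22 in day 10 GFP cells, beside 21.3%. They called 30 in Dox day 8 cells, beside 37.7%, and 50 in FRG day 8 cells, beside 44.9%. Both libraries called 12 in activated SCs, beside 17.2%, and 10 in quiescent SCs, beside 14.2%. Regions called in a single library made up 12 of the 87, or 13.8%, against 24.6% of all regions. Those called in 14 to 27 libraries made up 25.3%, against 16.6% of all regions.

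Few regions were called across the whole series, in the window as in the genome. The 2 called in all 28 libraries, 2.30% of the window's regions against 5.55% of all regions, lay in its lower part. The wider, chr10:119911841-119914428, spanned 2588 bp, the widest region of the window, and was called with a peak wider than the most common width of its list in 14 libraries. The other, chr10:119858879-119860820, spanned 1942 bp and was wider than that in 7 libraries. A further 5 regions were called in at least 1 library of every group, which made 7 in all, or 8.05%, near the 8.32% of all regions. Among them was chr10:120188349-120189428 with 27 libraries, 17 of which listed a wide peak. In block 4 these were chr10:120072717-120073773, called in 27 libraries, and chr10:120083380-120084395, called in 24.

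Both Dox+FRG day 8 and both Day 0 libraries called 10 regions. All 10 were also called in both libraries of Dox+FRG day 4 (90.5% of all regions kept in the genome), Dox+FRG day 6 (95.9%), day 8 GFP (81.3%), day 10 GFP (92%), Dox day 4 (95.7%) and FRG day 8 (96.5%). Both libraries called 9 of the 10 in Dox+FRG day 2 cells (85.1%) and in Dox day 8 cells (97.6%). MEF10 MN+FRG cells called 8 in both libraries (94.1%). MEF10 MyoD+FRG cells called 2 in both libraries (75.1%) and the rest in 1 library each, and their replicate 1 listed only 5 peaks in the window. Activated SCs called 6 of the 10 in both libraries (79.4%) and missed 3 entirely, while quiescent SCs called 6 in both (71.7%) and 4 in 1 library. The 3 that activated SCs missed were chr10:119988954-119990771, chr10:120138829-120139328 and chr10:120181567-120182556, each called in 1 quiescent SC library.

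**Figure D3:**
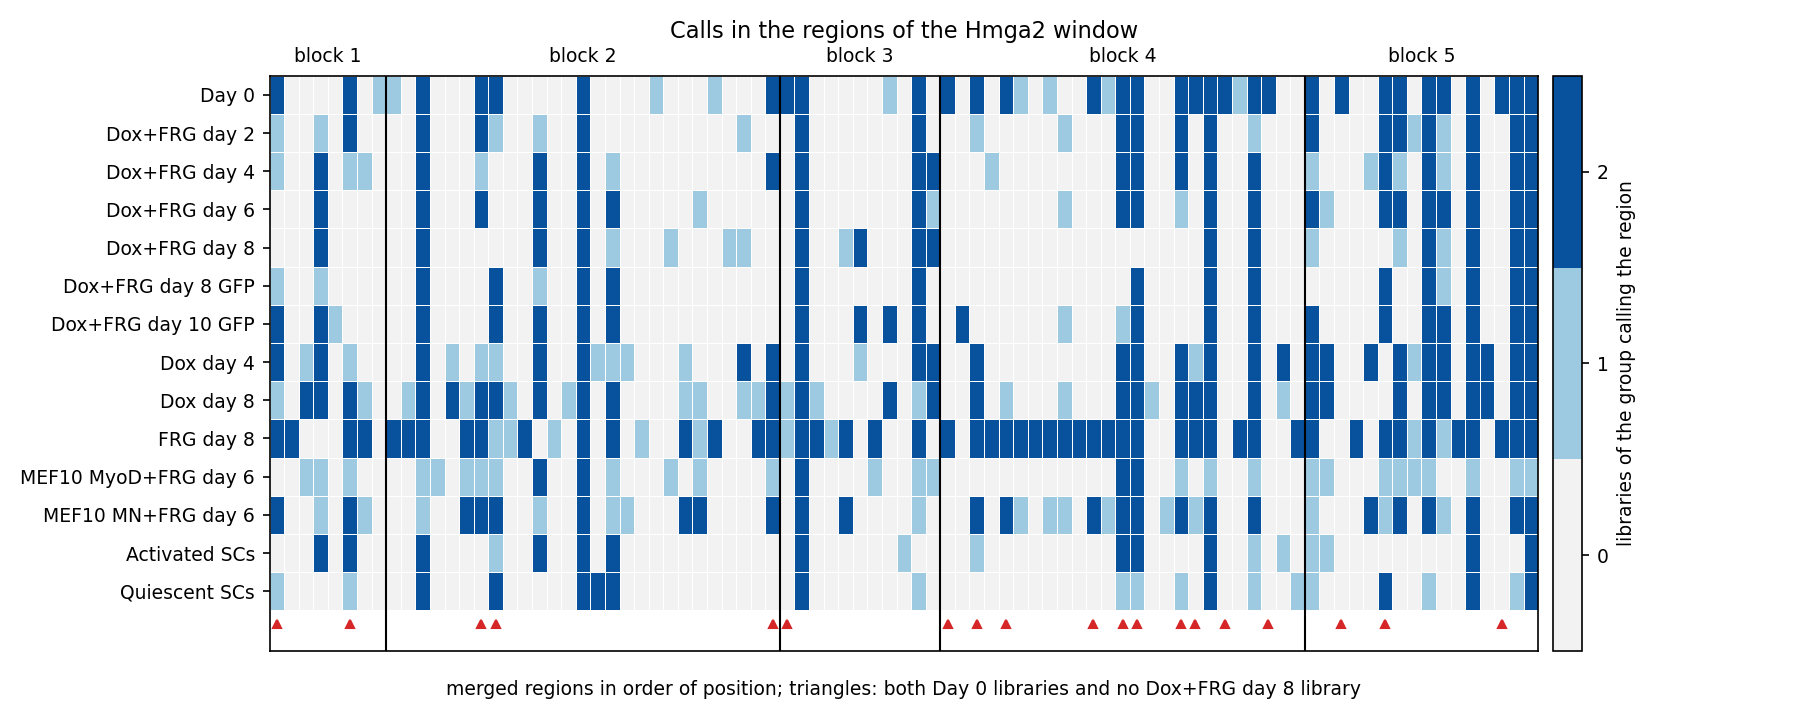
Calls in the 87 merged regions of the window (x axis, in order of position, black lines between the 100 kb blocks) by group (y axis). Dark blue marks a region called in both libraries of a group, light blue in 1, grey in none, and red triangles the 19 regions called in both Day 0 libraries and no library of Dox+FRG day 8 without GFP, 10 of them in block 4.

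Between Day 0 and Dox+FRG day 8, the contrast that chose the window, 19 of 36 regions tested were lost and 4 were gained, beside 30.6% lost and 20% gained among all regions tested in the genome. A region was counted as lost when both Day 0 libraries and no Dox+FRG day 8 library called it, and as gained in the reverse case. Regions tested were those called in both libraries of at least 1 of the 2 groups. Of the 19, 2 lay in block 1, 3 in block 2, 1 in block 3, 10 in block 4 and 3 in block 5. The lost regions ranged from sites seen at Day 0 alone to sites seen nearly everywhere, called in 2 to 25 libraries with a median of 12. In 10 of them no list had a peak wider than its own most common width.

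At Dox+FRG day 2, 10 of these 19 regions had no call, beside 50.3% of all lost regions in the genome. At day 4 it was 11, beside 63.6%, and at day 6 it was 14, beside 80.7%. Over days 2, 4 and 6 together, 9 of the 19 had no call, beside 41.9% of all lost regions. At day 2 both libraries called 6 of the 19, beside 28.4% of all 22953 regions lost in the genome. At day 4 they called 5, beside 14.3%, and at day 6 they called 4, beside 6.97%. The 4 regions that both day 6 libraries still called were chr10:119836778-119837549 in block 2, chr10:120053365-120054278 and chr10:120061008-120062527 in block 4, and chr10:120128501-120129000 in block 5.

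In groups that the choice of the window did not use, the lost regions were called most often in FRG day 8, MN+FRG and Dox day 8 cells. FRG day 8 cells called 14 of the 19 in both libraries, near the 75.1% over all lost regions of the genome. Dox day 8 cells called 9, beside 51.1%, and Dox day 4 cells 6, beside 26.6%. MEF10 MN+FRG cells called 11, beside 59.3%. Activated SCs called 3, beside 18.5%, and quiescent SCs 2, beside 10.4%. These shares lay near those of the genome, and lists of FRG, Dox and MN+FRG cells were also longer than those of Dox+FRG, GFP and satellite cells. In block 4, both FRG libraries called 8 of the 10 lost regions, both MN+FRG libraries 6 and both Dox day 8 libraries 5.

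Of the 19 regions, 9 were called in no Dox+FRG library of any day, with or without GFP, beside 39.4% of all lost regions, and 6 of the 9 lay in block 4. Among the 9, 5 were called in both FRG libraries, beside 50.6% of such regions in the genome. A group of 3 regions was called in Day 0 libraries alone, beside 6.87% of all lost regions, chr10:120075431-120075609, chr10:120089703-120089920 and chr10:120115387-120115619, all between 179 and 233 bp wide. The regions chr10:120001019-120001289 and chr10:120159558-120159779 were called in both Day 0 and both FRG libraries and in no other. These regions were singled out after their calls were seen.

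GFP cells called some of the lost regions. Both day 8 GFP libraries called 3 of the 19, beside 2.07% of all lost regions, and both day 10 GFP libraries 4, beside 7.67%. The 3 regions called in all 4 GFP libraries were chr10:119839004-119840427, chr10:120061008-120062527 and chr10:120128501-120129000. The first was called in both quiescent SC libraries, 1 activated SC library and no library of Dox+FRG day 4 and day 6. The second was called in 25 of 28 libraries and missed in both libraries of Dox+FRG day 8 without GFP and 1 quiescent SC library. The third was called in both quiescent SC libraries, in no activated SC library and in no Dox library. The count is small, and no test of its difference from the genome was made.

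**Figure D4:**
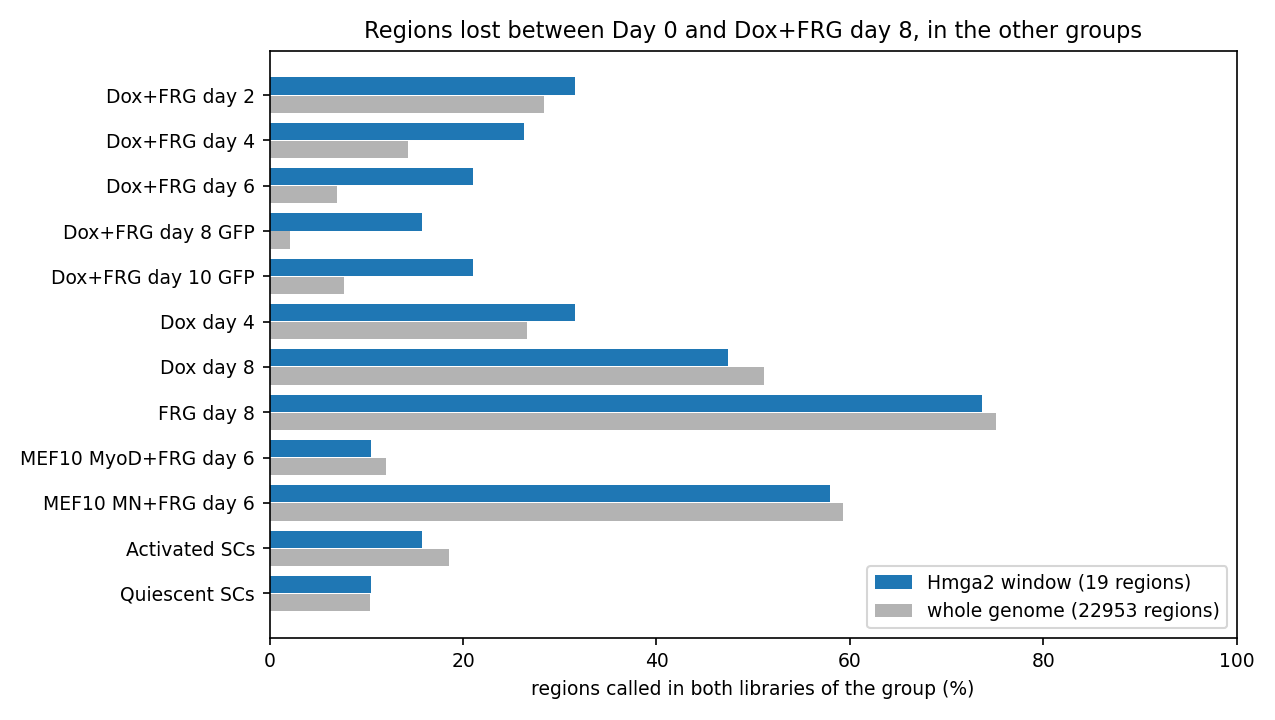
Percentage (x axis) of the regions lost between Day 0 and Dox+FRG day 8 that both libraries of each other group (y axis) called, in the Hmga2 window (blue, 19 regions) and in the whole genome (grey, 22953 regions). FRG day 8 stands at 73.7% in the window and 75.1% in the genome, and day 8 GFP at 15.8% and 2.07%.

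Groups differed in how many of the 46 regions with no Day 0 call they called, and so they did in the genome. Both libraries called 18 of them in FRG day 8 cells, 8 in Dox day 4 cells, 8 in Dox day 8 cells, 5 in day 10 GFP cells and 4 in Dox+FRG day 8 cells. Of the genome's 176545 regions with no Day 0 call, the same groups called 52096, 32458, 42911, 18987 and 14968 in both libraries, in this order. Among these groups FRG cells called the most and Dox+FRG day 8 cells the fewest, in the window and in the genome. In the genome, 43% of regions tested were gained in FRG day 8 cells against Day 0, 39.7% in Dox day 8 and 34% in Dox day 4 cells, and in the window 18 of 56, 8 of 41 and 8 of 40 were. All these comparisons share the Day 0 libraries. Of the 46 regions, 10 were called in both libraries of a Dox group and in no FRG library, which is 21.7% (19.5% of the genome's regions with no Day 0 call). Another 10 were called in both FRG libraries and no Dox library, again 21.7% (19.7% in the genome).

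Among those seen with Dox and not with FRG, 2 followed each other closely in their calls. The region chr10:119735250-119736018 in block 1 was called in 18 libraries, with both libraries of Dox+FRG days 4, 6 and 8, day 10 GFP, Dox days 4 and 8 and activated SCs. The region chr10:119847960-119848584 in block 2 was called in 19, with the same groups in both libraries and both MEF10 MyoD+FRG libraries as well. Neither was called in Day 0, FRG day 8 or quiescent SC libraries. A further region, chr10:119994948-119995596 in block 3, was called in both libraries of Dox+FRG days 4 and 8 and of Dox days 4 and 8, and in no GFP or satellite cell library. The grouping of these regions was made after their calls were seen.

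The 4 regions gained in Dox+FRG day 8 cells against Day 0 were these 3 and chr10:119937875-119938132, which both day 10 GFP libraries also called. Both Dox+FRG day 4 libraries called 3 of the 4, beside 59.7% of all regions gained in the genome, and both Dox day 8 libraries 3, beside 81%. Without Dox+FRG day 8 replicate 2 the gained regions numbered 8. FRG day 8 libraries called none of the 4, and both FRG libraries called 25.4% of the regions gained in the genome.

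FRG cells had the most regions of any group in block 4. Both FRG libraries called 19 of its 25 regions, beside 44.9% of all regions, from the longest lists of the series. Per 10000 peaks, block 4 averaged 1.42 in FRG lists and 2.02 in Day 0 lists. Of the 19, 9 were called in both libraries of no other group, beside 28.9% of all regions that both FRG libraries called. Over the whole window, 6 of 87 regions were called in both FRG libraries and in no other library, beside 8.26% of all regions, chr10:119713698-119713905, chr10:119846719-119846802, chr10:120023577-120024428, chr10:120037237-120037447, chr10:120116232-120116297 and chr10:120149116-120149203. Of 32 regions called in both Day 0 libraries, 26 were called in both FRG libraries, beside 87.2% in the genome, and 20 in both MEF10 MN+FRG libraries, beside 78.5%. Of the regions tested in FRG day 8 against Day 0, 3 of 56 were lost, beside 4.49% in the genome, and 6 were without Day 0 replicate 2 or FRG replicate 2.

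Set against Day 0, Dox+FRG and GFP cells had more lost than gained regions in the window. Lost and gained regions were 10 and 0 of 32 tested at Dox+FRG day 2, 11 and 3 of 35 at day 4 and 14 and 3 of 35 at day 6. The genome had 23% lost and 7.75% gained at day 2, 22.4% and 16.4% at day 4, and 25.4% and 22.3% at day 6. GFP cells had 17 lost and 1 gained of 33 at day 8 (40.3% and 16.1% in the genome) and 15 lost and 5 gained of 38 at day 10 (28.5% and 23.6%). Dox cells had 9 lost of 40 at day 4 (15%) and 7 of 41 at day 8 (6.63%). All of these use the same Day 0 libraries, on which the window was chosen, so the counts are not separate observations. Without Day 0 replicate 2 the lost regions numbered 17 for Dox+FRG day 2, 18 for day 4, 16 for Dox day 4 and 13 for Dox day 8. The gained regions numbered 1 and 4 without Dox+FRG day 2 replicate 1 or 2, 6 without day 4 replicate 2, 6 without day 6 replicate 1, 3 without day 8 GFP replicate 2 and 18 without Dox day 8 replicate 1.

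Comparisons without Day 0 gave the following counts. Dox+FRG cells lost 5 and gained 1 of 28 regions against Dox at day 4, beside 25.1% and 2.91% in the genome. At day 8 they lost 14 and gained 1 of 32 against Dox, beside 39.6% and 1.94%. Against FRG at day 8, Dox+FRG cells lost 36 and gained 4 of 54 regions, beside 55.7% and 8.98%, and 17 of the 36 lay in block 4. Day 8 GFP cells gained 3 and lost 2 of 18 regions against Dox+FRG day 8 cells without GFP, beside 5.15% gained and 19.2% lost in the genome. Day 10 GFP cells gained 4 and lost 0 of 22 regions against day 8 GFP cells, beside 16.8% and 0.541%. The comparisons with Dox+FRG day 8 cells use the Dox+FRG libraries on which the window was chosen.

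In activated SCs both libraries called 12 of the 87 regions, beside 17.2% of all regions, and in quiescent SCs 10, beside 14.2%. The quiescent lists differed from each other, with 22 and 10 window peaks. Activated SCs gained 2 and lost 2 of 15 regions against quiescent SCs, beside 26.2% gained and 16.4% lost in the genome, and block 4 held no gained or lost region. The 2 gained regions were the pair in blocks 1 and 2 described above, seen with Dox and not with FRG. The 2 lost regions were chr10:119863291-119863508, called in both quiescent SC libraries and 1 Dox day 4 library, and chr10:120128501-120129000. Day 10 GFP cells gained 9 and lost 1 of 24 regions against activated SCs, beside 26% and 15.9% in the genome. Against quiescent SCs they gained 6 and lost 1 of 23, beside 27.5% and 9.97%. Between activated and quiescent SCs, 5 regions were gained without activated SC replicate 2 or quiescent SC replicate 1, and 8 were lost without quiescent SC replicate 2.

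MEF10 cells are given as values, since their libraries of MyoD+FRG differed most within a group. MyoD+FRG lists held 5 and 32 window peaks and MN+FRG lists 37 and 29. In block 4 the counts were 2 and 5 for MyoD+FRG and 13 and 9 for MN+FRG, or 0.536 and 0.547 against 1.40 and 0.960 per 10000 peaks. With 2 libraries against 2 an exact permutation test cannot go below p = 0.333.

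Among 4636 other tiles of 500 kb with at least 10 regions, the share of the tile on chromosome 6 from 84700001 to 85200000 followed that of the window most closely over the 28 libraries (Spearman's rho = 0.79). The next were on chromosome 7 from 119200001 to 119700000 (rho = 0.76) and on chromosome 13 from 98700001 to 99200000 (rho = 0.75), while the median tile had a rho of 0.02. The points share list length and replicate libraries, and these correlations are descriptions.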

How the data were processed

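ATAC-seq peak lists of 28 libraries were used, 1 list per library. The deposited values are of an other kind than counts or signal, chromosome, start and end of each peak with no score, so no depth or interval can be given. The authors used BWA, HOMER and mm9, per the submitters' processing notes; the sources used here give no versions, peak threshold, read filters or shift for the transposase. Starts were taken to be 0-based, and printed ones are 1-based. Peaks overlapping by at least 1 bp were merged over all lists, and any peak in a region made it called in that library. Peaks were scaled per 10000 of their list. The exact permutation tests were two-sided over libraries, with Benjamini-Hochberg adjustment over 6 tests and a threshold of 0.05. Counting and tests were checked on simulated data (Python 3.11.15, numpy 2.4.6, pandas 2.3.3, scipy 1.17.1). Genome tiles of 500 kb and blocks of 100 kb took a peak by its middle. The window, tests and lists were chosen with earlier results of these data known. The rule for named regions took those lost, those called in every group and those called in both libraries of some group but never at Day 0, in order of position up to 30. That number was reached at the first region of block 4 (120001019), so later regions named here, and any other outside the rule, were chosen after their values were seen. Alternatives were other scalings, extended peaks (wider than the modal width in that list, standing in for a stricter threshold), a 50% overlap, other groupings and libraries left out. The 50% overlap had no effect by construction. Marker genes were not examined for want of an mm9 annotation.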

Additional observations from a re-analysis of the deposited data

Results flagged for a closer look

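The difference between Dox+FRG and Dox cells ran in opposite directions, per 10000 peaks, at the 2 days on which both were measured. At day 4 the window share was 3.85 in Dox+FRG and 3.52 in Dox libraries, with both Dox+FRG libraries above both Dox libraries, and at day 8 it was 3.05 and 3.29, with both below. The difference thus changed by -0.565 peaks per 10000 between day 4 and day 8. Block 4 did the same, with 0.908 in Dox+FRG and 0.798 in Dox libraries at day 4 and 0.347 and 0.758 at day 8, a change of -0.521. Counts not divided by list length did not turn. The window held 27 and 20 peaks in Dox+FRG and 33 and 33 in Dox lists at day 4, and 21 and 15 against 35 and 44 at day 8. Block 4 held 6 and 5 against 7 and 8 at day 4, and 2 and 2 against 9 and 9 at day 8. The change was not tested, because the window and block 4 were chosen for regions lost in the Dox+FRG day 8 libraries. That choice favours low day 8 values in Dox+FRG cells, so nothing is read from the turn. Dox+FRG lists held 50608 to 70877 peaks on these days and Dox lists 89871 to 130916, and the part of list length in the result was not tested.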

How the results depend on the processing

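None of the 98 share tests under another setting that left out the Dox+FRG day 8 libraries reached an adjusted p of 0.05 (exact permutation tests). Some could not do so even before adjustment. The smallest possible exact permutation p was 0.133 for GFP against activated or quiescent SCs alone. It was 0.0571 for GFP against satellite cells with 1 library left out. Of 106 values other than those with a library left out, 75 kept their direction or stayed within 1.5 times. The 50% overlap setting could change no count, since each peak lies wholly in its merged region, yet its values are among the 75. Merging without MEF10 MyoD+FRG replicate 2 moved no gained or lost count beyond 1.5 times. Raw counts turned the difference of Dox+FRG days 2 to 6 from Dox to -13.4 peaks (window) and -2.92 (block 4), and that of GFP from satellite cells in block 4 to 0. Per 10000 chromosome 10 peaks, that of GFP from satellite cells in block 4 was 0.222. Per 10000 peaks of the whole list, the difference of GFP from quiescent SCs alone in block 4 was 0.0772. Extended peaks gave, for the window, -0.548 (Dox+FRG and Dox), 0.741 (GFP and Dox+FRG) and -0.350 (GFP and satellite cells), and for block 4 -0.455 (Dox+FRG and Dox) and 0 (GFP and satellite cells). With FRG joined to Dox block 4 gave -0.0921 for Dox+FRG and Dox. The cause of these turns was not tested. With matched days 4 and 8 the difference of Dox+FRG from Dox was 0.0403 for the window and -0.150 for block 4. That setting holds the Dox+FRG day 8 libraries on which the window and block 4 were chosen, so nothing is read from these values.

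Extended peaks also left fewer lost and gained regions against Day 0: 4 lost at Dox+FRG day 2, 2 and 0 at day 4, 3 and 0 at day 6, 4 and 0 at day 8, 3 and 0 in day 8 GFP, 4 and 0 in day 10 GFP, 4 and 1 in Dox day 4, 2 and 2 in Dox day 8, 0 and 6 in FRG day 8 cells, and 1 and 0 between activated and quiescent SCs. Fewer peaks enter this count by construction, and the width that a peak had to exceed differed between lists.

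With 1 library left out, the difference of GFP from satellite cells in block 4 ranged from -0.161 to 0.0965; it was positive without either day 8 GFP, either activated SC library or quiescent SC replicate 1 (0.0248, 0.00749, 0.0225, 0.0223 and 0.0965). Lost counts against Day 0 without Day 0 replicate 2 were 17 at Dox+FRG day 2, 18 at day 4, 16 in Dox day 4, 13 in Dox day 8 and 6 in FRG day 8 cells, and also 6 in the last without FRG replicate 2. Lost counts ranged from 10 to 17, 12 to 18, 11 to 16, 9 to 13 and 3 to 6 in those comparisons. Gained counts ranged from 0 to 4 at Dox+FRG day 2 (1 without replicate 1 and 4 without replicate 2), 3 to 6 at day 4 (without replicate 2), 3 to 6 at day 6 (without replicate 1), 4 to 8 at day 8 (without replicate 2), 1 to 3 in day 8 GFP (without replicate 2) and 8 to 18 in Dox day 8 (without replicate 1). Between activated and quiescent SCs they ranged from 2 to 5 gained (5 without quiescent replicate 1 or activated replicate 2) and 2 to 8 lost (without quiescent replicate 2).

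With the replicate number as a block no call changed: exact permutation p was 0.0800, 0.360 and 0.167 for the window and 0.180, 0.0800 and 0.944 for block 4, in the order of the report. For GFP against satellite cells the smallest possible p of this test was 0.0556, so that call could not change. Over all regions the deviations of same-numbered libraries correlated between -0.0388 and 0.0795 over 36 pairs of groups, 0 of them above 0.1, so the libraries share a number and no pairing was shown.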
